A study of Bos indicus x Bos taurus with 17 samples.

Results

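The small leucine-rich proteoglycans are secreted proteins of the extracellular matrix whose curved, leucine-rich core binds collagen fibrils. The 9 genes described here were DCN, BGN, LUM, FMOD, OGN, ASPN, OMD, PRELP and KERA, taken by gene symbol from the 21048 genes of the liver and skeletal muscle count tables. Messenger RNA was sequenced from both tissues of the same 6 bovine fetuses, F1 hybrids of Bos indicus and Bos taurus, at about day 105 of gestation. The ART-Normal group held 4 fetuses produced in vitro by assisted reproduction whose body weight was similar to that of the controls (ART-Normal 1, 2, 3 and 4), and the Control-AI group held 2 fetuses conceived by artificial insemination (Control-AI 2 and 4). The weight of ART-Normal 4 was not given in the sources used here. No line, transgene or drug separated the groups, and each library came from 1 fetus. The kidney libraries were not analysed here.

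Members of the family regulate how thick collagen fibrils become and how far apart they lie. Decorin and biglycan carry chondroitin or dermatan sulfate chains and bind TGF-beta, lumican, fibromodulin and keratocan can carry keratan sulfate, and asporin is set apart by a run of aspartate residues in place of the chain. In skeletal muscle these proteins belong to the connective tissue around fibres and fascicles and to the junction with tendon, and in liver to the portal tracts and the matrix made by stellate cells and portal fibroblasts.

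Each library held between 12433300 and 23578362 gene counts in muscle and between 18454088 and 43339598 in liver, and levels are given as CPM, counts scaled to the total of the library. All 11 muscle fibre markers tested were lower in liver and all 10 hepatocyte markers were higher there, as the tissue labels state. The 8 erythroid markers were also higher in liver. The filter on low values, 5 CPM in every library of a group, favours these directions for most of them. No muscle fibre marker passed it in liver, and only 3 hepatocyte markers and 1 erythroid marker passed it in muscle. Both libraries of Control-AI 2 stood apart. They lay at -45.7 (muscle) and -45.9 (liver) on the leading principal component of their tissue, with 53.3% and 50.8% of the variance, whereas all other libraries lay at 2.45 or above. The summed level of the hepatocyte markers was 345900 CPM in the liver of Control-AI 2 and between 37440 and 67120 CPM in the other 5 livers. In muscle it was 422.2 CPM in Control-AI 2 and between 26.99 and 69.84 CPM in the others. The muscle fibre markers summed to 44.84 CPM in the liver of Control-AI 2 and to between 7.951 and 11.07 CPM in the other 5 livers. Each tissue of this fetus thus held more transcripts typical of the other tissue, and the cause was not tested. The levels below are CPM after TMM normalization within each tissue. They were not divided by transcript length, so they rank samples for 1 gene and do not rank genes.

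In the ARS-UCD1.2 assembly used for the files, 8 of the 9 genes lie in 3 clusters. On chromosome 5, KERA (gene 280785, 20929212 to 20936988), LUM (gene 280847, 20971292 to 20980825) and DCN (gene 280760, 21014373 to 21053400) follow each other on the minus strand. On chromosome 8, OGN (gene 280884, 84019267 to 84034853), OMD (gene 280885, 84037691 to 84054241) and ASPN (gene 507990, 84067280 to 84092633) also lie on the minus strand, inside the span of CENPP, a kinetochore protein gene of the plus strand. On chromosome 16, FMOD (gene 281168, 1122158 to 1132168, minus strand) and PRELP (gene 282000, 1238686 to 1252743, plus strand) are neighbours. BGN (gene 280733) lies alone among unrelated genes on chromosome X, 36728447 to 36742281, plus strand.

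All 8 members that could be tested were lower in liver than in muscle, the 9th, OMD, being too low in both. FMOD and KERA passed the filter on low values only through muscle, which favours this direction for them. The difference ran from 2.4-fold for BGN and 2.76-fold for PRELP through 6.38-fold for ASPN, 9.96-fold for FMOD, 14-fold for DCN and 22.1-fold for OGN to 94.3-fold for LUM, while KERA had a single count over the 6 livers. The comparison used the 12 libraries of both tissues and edgeR's quasi-likelihood test with Benjamini-Hochberg adjustment. Of all 12923 genes tested, 39.9% were called lower in liver, and the median log2 difference, liver minus muscle, was 0.01 over all genes and -3.56 over the 8 members. With at least 10 counts required in every library, KERA dropped out and the other 7 were called, at a median of -3.3. Without Control-AI 2 the same 8 members were called, at log2 differences of -1.38 for BGN, -1.77 for PRELP, -3.05 for ASPN, -3.78 for FMOD, -4.11 for DCN, -4.64 for OGN and -7.17 for LUM. In RNA from whole tissue, fewer cells of a type and less RNA per cell cannot be told apart. The labels do not say more of the replicates than that they are separate fetuses. The p-values of this fit measure the spread between libraries of the same tissue and group, and do not use the pairing of tissues by fetus. A fit with fetus as a block also called 8 members.

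**Figure D1:**
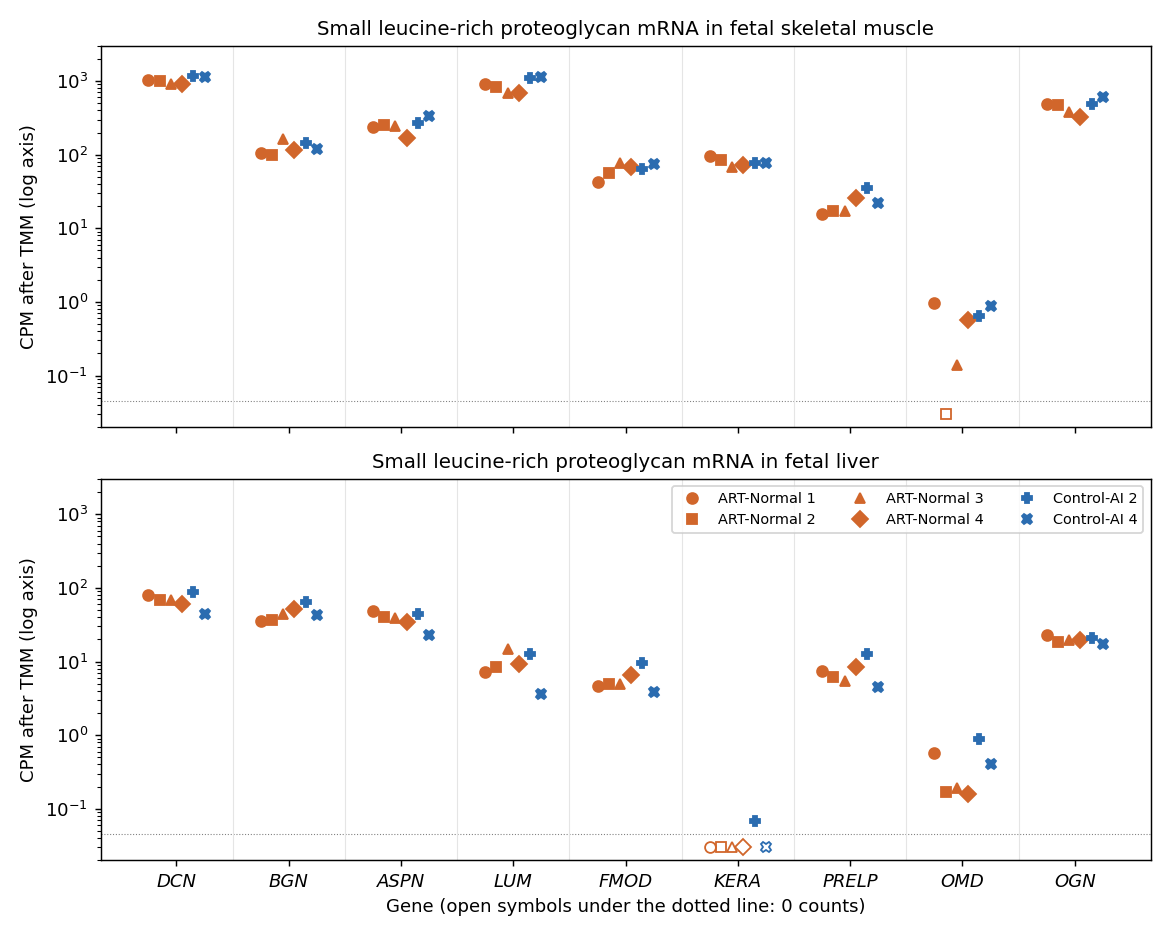
Level of each of the 9 genes in skeletal muscle (top) and liver (bottom), in CPM after TMM normalization on a log axis; each symbol is 1 fetus, orange for ART-Normal and blue for Control-AI, and open symbols under the dotted line mark 0 counts. DCN lies between 899 and 1172 CPM in muscle and between 44.5 and 86.9 CPM in liver, whereas KERA has counts in 1 of the 6 livers.

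Among the class I members, DCN encodes decorin, which binds type I collagen fibrils and several growth factors. Its level in muscle was 1044, 1007, 899 and 908 CPM in ART-Normal 1 to 4, against 1172 CPM in Control-AI 2 and 1130 in Control-AI 4. In liver it was 81.1, 69.3, 68.4 and 60.7 CPM in ART-Normal 1 to 4, against 86.9 CPM in Control-AI 2 and 44.5 in Control-AI 4. The lowest muscle library was thus above the highest liver library, and the 2 controls were the highest and the lowest of the 6 livers. The log2 difference between liver and muscle was -3.81 (SE 0.18, edgeR adjusted p = 3.63e-10).

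BGN encodes biglycan, the close relative of decorin, which also signals through Toll-like receptors when released from the matrix. BGN was at 105.8, 97.7, 161.7 and 114.4 CPM in the muscle of ART-Normal 1 to 4, against 146 CPM in Control-AI 2 and 120 in Control-AI 4. Its liver levels were 36, 36.8, 44.8 and 51.4 CPM in ART-Normal 1 to 4, against 63.6 CPM in Control-AI 2 and 42.8 in Control-AI 4. The tissues did not overlap, yet the gap was the smallest among the members tested, with a log2 difference of -1.27 (SE 0.16, edgeR adjusted p = 7.74e-06).

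ASPN encodes asporin, which binds collagen and TGF-beta1. Muscle ASPN was 236.8, 252.4, 248.3 and 167.4 CPM in ART-Normal 1 to 4, against 272.7 CPM in Control-AI 2 and 334.5 in Control-AI 4. Liver ASPN was 49.1, 39.8, 39.2 and 34.1 CPM in ART-Normal 1 to 4, against 44.9 CPM in Control-AI 2 and 23.2 in Control-AI 4. Again no liver reached the lowest muscle, and Control-AI 4 had the highest muscle and the lowest liver value. The log2 difference was -2.67 (SE 0.18, edgeR adjusted p = 1.46e-08).

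Of the class II members, LUM encodes lumican, a regulator of collagen fibril assembly in cornea, skin and tendon. LUM stood at 904, 824, 696 and 679 CPM in the muscle of ART-Normal 1 to 4, against 1103 CPM in Control-AI 2 and 1133 in Control-AI 4. In liver LUM was at 7.25, 8.52, 14.6 and 9.3 CPM in ART-Normal 1 to 4, against 12.8 CPM in Control-AI 2 and 3.62 in Control-AI 4. The tissues were far apart, and the liver values had the widest relative spread among the members with over 100 counts in all, with a coefficient of variation of 42.1%. The log2 difference was -6.56 (SE 0.35, edgeR adjusted p = 1.22e-09).

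FMOD encodes fibromodulin, which shares a collagen-binding site with lumican. FMOD was at 42.1, 56.5, 76.8 and 67.4 CPM in the muscle of ART-Normal 1 to 4, against 64.2 CPM in Control-AI 2 and 74.9 in Control-AI 4. The livers held 4.59, 4.92, 4.94 and 6.63 CPM in ART-Normal 1 to 4, against 9.54 CPM in Control-AI 2 and 3.87 in Control-AI 4. The log2 difference was -3.32 (SE 0.24, edgeR adjusted p = 2.53e-08), and the tissues did not overlap. FMOD passed the filter on low values only through muscle. With at least 10 counts required in every library its log2 difference was -3.30.

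KERA encodes keratocan, known from the corneal stroma and also made in tendon. KERA was at 95.6, 85.8, 67.8 and 72.4 CPM in the muscle of ART-Normal 1 to 4, against 76.5 CPM in Control-AI 2 and 77.5 in Control-AI 4. In liver it had 0 counts in 5 libraries and 1 count in Control-AI 2. It passed the filter on low values only through muscle. A count of 0 allows up to 3 counts, or 0.0667 to 0.138 CPM in these 5 livers, for counting error only. Against that limit, the muscle level was at least 651-fold, 1210-fold, 532-fold and 679-fold higher in ART-Normal 1 to 4 and at least 573-fold higher in Control-AI 4. In Control-AI 2 the ratio was 1000, with an exact 95% interval of 180 to 39700 for counting error only. The muscle fibre markers were also highest in this liver, and the origin of its 1 KERA count was not tested.

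PRELP encodes a heparin-binding protein that anchors basement membranes to connective tissue. PRELP was at 15.8, 16.9, 17.2 and 25.6 CPM in the muscle of ART-Normal 1 to 4, against 35.3 CPM in Control-AI 2 and 22.2 in Control-AI 4. In liver PRELP was at 7.34, 6.23, 5.37 and 8.4 CPM in ART-Normal 1 to 4, against 12.7 CPM in Control-AI 2 and 4.48 in Control-AI 4. Control-AI 2 was the highest library in each tissue, and no liver reached the lowest muscle. The log2 difference was -1.47 (SE 0.26, edgeR adjusted p = 0.000154).

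OMD encodes osteomodulin, or osteoadherin, a keratan sulfate proteoglycan of mineralized matrix. OMD had 23, 0, 3 and 11 counts in the muscle of ART-Normal 1 to 4, against 8 counts in Control-AI 2 and 21 in Control-AI 4. In liver it had 13, 8, 5 and 5 counts in ART-Normal 1 to 4, against 13 counts in Control-AI 2 and 10 in Control-AI 4. No library exceeded 0.968 CPM, and no difference between tissues or groups was detectable at this depth.

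OGN, the class III member, encodes osteoglycin, also called mimecan, found in the matrix of muscle, bone and vessel wall. Muscle OGN was 490.2, 478.3, 385.1 and 325.4 CPM in ART-Normal 1 to 4, against 484.3 CPM in Control-AI 2 and 611.7 in Control-AI 4. Liver OGN was 23, 18.6, 19.4 and 19.6 CPM in ART-Normal 1 to 4, against 20.6 CPM in Control-AI 2 and 17.3 in Control-AI 4. The liver levels were the most even of the family, with a coefficient of variation of 9.73% against 21.3% in muscle. The log2 difference was -4.47 (SE 0.15, edgeR adjusted p = 1.97e-11).

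Because each fetus gave both tissues, the size of the difference could be followed within animals on a common 12-library normalization. The muscle to liver ratio ranged over the 6 fetuses from 2.02 to 3.26 for BGN, from 1.92 to 4.47 for PRELP, from 4.3 to 13 for ASPN and from 6.1 to 17.5 for FMOD. It ranged from 11.5 to 22.9 for DCN, from 15 to 31.9 for OGN and from 42.9 to 283 for LUM. Neighbours in this order overlapped, except that the lowest LUM ratio lay above the highest OGN ratio. The KERA bounds of the 5 fetuses without liver counts lay above all LUM ratios, while the interval of Control-AI 2 reached into them. Control-AI 4 had the highest ratio for DCN, LUM, OGN, ASPN, FMOD and PRELP.

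**Figure D2:**
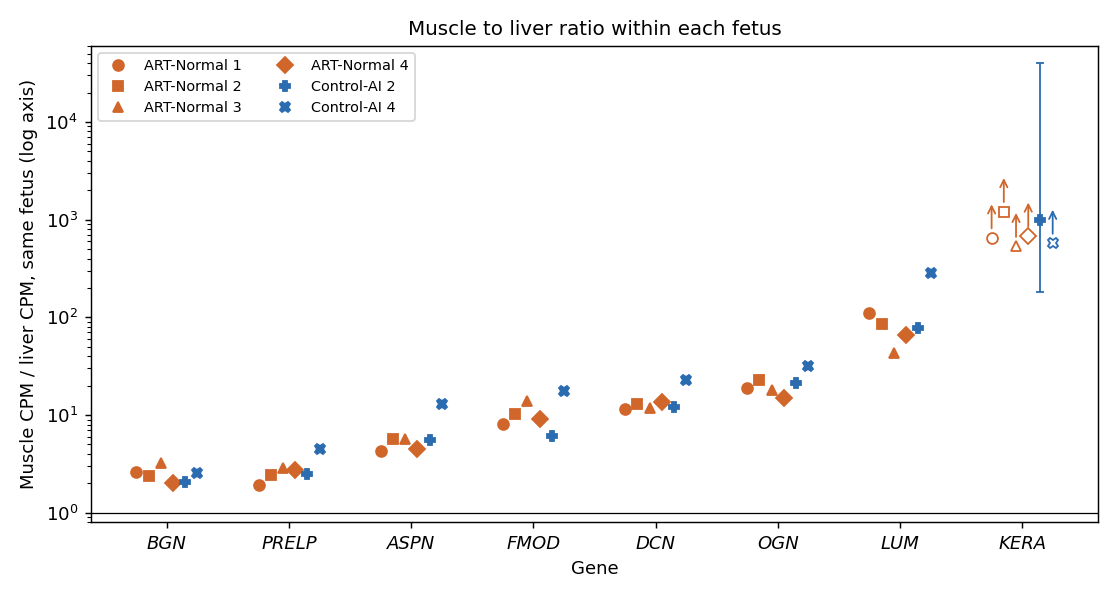
Muscle CPM divided by liver CPM of the same fetus, on a log axis, for the 8 members tested; open symbols with arrows are lower bounds where liver had 0 counts, and the bar on the KERA point of Control-AI 2 is its exact 95% interval. All ratios lie above 1, from 1.92 for PRELP in ART-Normal 1 to bounds of 532 or more for KERA.

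The make-up of the family differed between the tissues. Relative to DCN counts of the same library, a scale on which normalization cancels, LUM was lower in liver and BGN, PRELP and ASPN were higher. LUM counts amounted to 86.6%, 81.9%, 77.5% and 74.8% of DCN counts in the muscle of ART-Normal 1 to 4, against 94.2% in Control-AI 2 and 100% in Control-AI 4. In liver the LUM share was 8.94%, 12.3%, 21.4% and 15.3% in ART-Normal 1 to 4, against 14.7% in Control-AI 2 and 8.14% in Control-AI 4. BGN went the other way, from between 9.71% and 18% of DCN counts in muscle to between 44.4% and 96.2% in liver. PRELP went from between 1.52% and 3.01% to between 7.85% and 14.6%, and ASPN from between 18.4% and 29.6% to between 51.7% and 60.6%. The ASPN share in liver was nearly the same in all fetuses, with both controls at the lower end.

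The mean log2 difference of the ratio to DCN, liver minus muscle, was -2.74 for LUM (SD 0.64, n = 6 fetuses), -0.60 for OGN (SD 0.25), 1.21 for ASPN (SD 0.28), 2.49 for BGN (SD 0.46) and 2.33 for PRELP (SD 0.18). Each of these 5 had its sign in 6 of 6 fetuses, and each gave p = 0.03125 in an exact two-sided sign-flip permutation test, the smallest value 6 fetuses allow (adjusted p = 0.0375 over 6 genes). FMOD kept closest to DCN, at 0.42 (SD 0.40, above 0 in 5 of 6 fetuses, exact permutation p = 0.0625, adjusted p = 0.0625). These ratios were chosen after the levels had been seen. Without Control-AI 2 the means were -2.76, -0.55, 1.22, 2.48 and 2.34, and the permutation p was 0.0625 for each, the smallest that 5 fetuses allow.

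**Figure D3:**
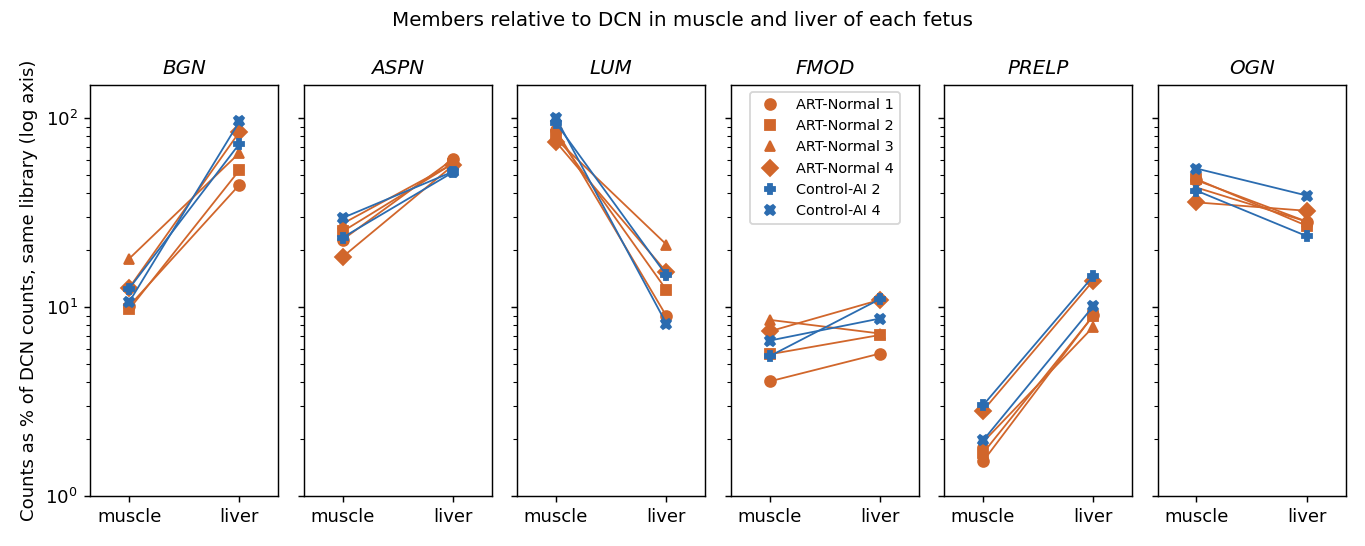
Counts of 6 members as a percentage of DCN counts in the same library, on a log axis, with a line joining the muscle and the liver of each fetus (orange ART-Normal, blue Control-AI). The lines of BGN, ASPN and PRELP rise from muscle to liver in all 6 fetuses, those of LUM and OGN fall, and those of FMOD are mixed, with ART-Normal 3 going down.

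Markers of other cell types moved with the tissue difference. Of 12 markers of connective tissue fibroblasts, 10 were lower in liver and 1 was higher, beside 39.9% of all genes tested called lower there. In liver 7 of them passed the filter. MFAP5, PI16, DPT, LOX and TWIST2 passed only through muscle, which favours a lower value in liver. The summed level of the 12 was 1498 to 2184 CPM in liver and 7071 to 9580 CPM in muscle. The 6 tendon markers, a list that includes KERA itself, summed to between 1.13 and 2.21 CPM in liver and between 227 and 340.8 CPM in muscle. Only MKX, THBS4 and KERA passed the filter, all through muscle alone. TNMD, the defining tendon gene tenomodulin, had 0 counts in every liver and at most 258 in muscle. COMP went the other way, with at most 32 counts in liver and 10 in muscle. The cartilage and bone list summed to 14.1 to 19.4 CPM in liver and 27.2 to 33.2 CPM in muscle. Of its 10 genes only SOX9 and ALPL passed the filter, both through muscle alone, which favours this direction, and both were lower in liver. The highest raw count was in liver for RUNX2 (184 against 65 in muscle), COL9A1 (92 against 23), MATN1 (56 against 7), BGLAP (48 against 18) and MATN3 (19 against 17). It was in muscle for ACAN, SP7 and IBSP, bone sialoprotein, which had 0 counts in every liver and at most 8 in muscle. The list for hepatic stellate and mesothelial cells was higher in liver for 5 of 7 genes tested, with sums of 277.4 to 357.7 CPM against 67.1 to 89.1 CPM. In this list MSLN was lower in liver (log2 difference -2.32, edgeR adjusted p = 5.37e-07) and NGFR was not called. MSLN passed the filter only through muscle, and LHX2, LRAT, HAND2 and GATA4 only through liver. Endothelial markers were lower in liver for 4 of 5. The part of these cell types in the differences between tissues was not tested.

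Genes next to the clusters did not share a single pattern. On chromosome 5, EPYC, another family member adjoining KERA, stayed at or under 0.295 CPM in all libraries, and CCER1 had 0 counts. On chromosome 16, OPTC, the opticin gene beyond PRELP, reached at most 1.59 CPM, while BTG2, an antiproliferative gene on the other side of FMOD, was higher in liver (log2 difference 1.70, edgeR adjusted p = 2.29e-07). Beside BGN on chromosome X, HAUS7 was at 21.4 to 26.6 CPM in liver and 21 to 32.5 CPM in muscle and was not called, and ATP2B3 stayed at or under 0.677 CPM. On chromosome 8, ECM2, which lies next to ASPN and encodes a related leucine-rich matrix protein, was lower in liver (log2 difference -2.70, edgeR adjusted p = 1.8e-10). NOL8 was not called (log2 difference -0.20, edgeR adjusted p = 0.144), and IPPK was higher in liver (log2 difference 0.91, edgeR adjusted p = 5.15e-06).

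CENPP spans the whole OGN, OMD, ASPN and ECM2 block on the opposite strand. The libraries were made strand-specific, but the sources used here do not state whether counting used the strand, so reads of overlapping genes could not be kept apart with certainty. CENPP was at 18 to 23 CPM in 5 muscle libraries and at 885.3 CPM in Control-AI 2, and at 16 to 27.1 CPM in 5 livers and 99.7 CPM in Control-AI 2. In muscle its counts were 2.15% to 3.15% of those of the 4 opposite genes in 5 libraries and 105% in Control-AI 2, and in liver, where those genes are low, they were 23% to 37.5% in 5 libraries and 127% in Control-AI 2. OGN and ASPN of Control-AI 2 lay within the range of the other libraries in both tissues, and did not stand out as CENPP did.

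The other family members and the wider pathway had mostly the same direction between tissues. The counts of each list below stand beside 39.9% of all genes tested that were called lower in liver. Of 9 further leucine-rich family genes, 3 passed the filter, and all 3 were lower in liver. ECM2 and TSKU also passed it in liver, whereas PODN passed only through muscle, which favours this direction. Of the pathway genes counted or named below, the collagens COL2A1, COL5A3, COL11A1 and COL11A2 also passed only through muscle. So did CHST1, CHST6, CHST12, MSTN, TGFB2, TGFB3, BMP6, WISP1, ADAMTS4 and TLL2, whereas CHST13 passed only through liver. ECM2 ranged from 12 to 15.1 CPM in liver and from 79 to 119.3 CPM in muscle. TSKU, encoding tsukushi, a secreted modulator of growth factor signals, ranged from 5.42 to 11.2 CPM in liver and from 35 to 40.8 CPM in muscle. PODN, podocan, was at or under 0.189 CPM in liver and at 3.94 to 9.37 CPM in muscle.

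Fibrillar collagens, the main ligands of the family, were lower in liver for 8 of 9 genes, with a median log2 difference of -4.19. COL1A2, a chain of type I collagen, was at 30.8 to 127.5 CPM in liver and 5248 to 6884 CPM in muscle (log2 difference -5.97, edgeR adjusted p = 8.01e-09). The other leading genes were COL5A3 (-6.68) and COL11A1 (-5.51), chains of the minor fibrillar collagens that nucleate fibrils.

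Of the 28 enzymes of glycosaminoglycan chain synthesis tested, 19 were lower and 4 were higher in liver, with a median log2 difference of -0.96. The lowest in liver were the sulfotransferases CHST6 (log2 difference -4.05), CHST3 (-3.71) and CHST1 (-2.80), of which CHST6 and CHST1 act on keratan sulfate and CHST3 on chondroitin. Higher in liver were PAPSS2 (2.37), which makes the sulfate donor, UGDH (1.46), which makes UDP-glucuronate, and CHST13, a chondroitin 4-O-sulfotransferase at 60.2 to 102.8 CPM in liver and at most 2.54 CPM in muscle. That highest muscle value was the library of Control-AI 2.

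Among growth factors and receptors that bind family members, 12 of 18 were lower and 4 were higher in liver. Of the 12, MSTN, TGFB2, TGFB3, BMP6 and WISP1 passed the filter only through muscle. MSTN, myostatin, a brake on muscle growth that decorin can bind, was at 75 to 126.6 CPM in muscle and at most 0.168 CPM in liver. TGFB2 (log2 difference -6.39) and TGFB3 (-4.94) were lower in liver, whereas TGFB1 was higher there (0.95, edgeR adjusted p = 0.00171). The receptors TLR2 (0.64) and MET (0.62) were also higher in liver. Of 8 proteases that cleave small proteoglycans or act beside them, 7 were lower in liver, led by MMP2 (-4.24), ADAMTS4 (-3.34) and PCOLCE (-3.10), an enhancer of procollagen processing, and 1, ADAMTS1 (0.76), was higher.

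The comparison of ART-Normal with Control-AI asked whether conception by assisted reproduction went with a different level of these genes at similar body weight. In muscle none of the 8 members tested passed the threshold of 0.05 in edgeR's quasi-likelihood test, where 0.00855% of the 11695 genes did, a single gene. At an unadjusted p under 0.05 there were 3 members, LUM, PRELP and ASPN, all lower in ART-Normal, beside 1075 of the 11695 genes, 412 of them lower, and DESeq2 called 0 of the members. The log2 fold change, ART-Normal minus Control-AI, was below 0 for 7 of 8, with a median of -0.32 against 0.00069 over all genes.

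LUM had the smallest p of the members. Its 4 ART-Normal muscles, at 679 to 904 CPM, lay below both controls, at 1103 and 1133 CPM, and the log2 fold change was -0.53 (SE 0.16, 95% interval -0.89 to -0.17, edgeR adjusted p = 0.372). DCN also had all ART-Normal muscles below both controls, at a log2 fold change of -0.25 (SE 0.15, 95% interval -0.58 to 0.07, edgeR adjusted p = 0.647). The third such gene was ASPN, at -0.42 (SE 0.18, 95% interval -0.82 to -0.03, edgeR adjusted p = 0.51). Of all genes tested in muscle, 7.22% had every ART-Normal library below both controls and 8.76% had every one above; of the 8 members, 3 were below and none was above. Without Control-AI 2 the log2 fold changes in muscle were -0.56 for LUM, -0.24 for DCN and -0.58 for ASPN, and no member was called.

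The groups overlapped for the other members in muscle. PRELP had the largest fitted difference, -0.60 (SE 0.24, 95% interval -1.13 to -0.07, edgeR adjusted p = 0.488), with ART-Normal 4 above Control-AI 4. Without Control-AI 4 the PRELP difference became -0.89 and passed the threshold (edgeR adjusted p = 0.0253), a fit in which 1327 genes passed and the lone control was the library that stands apart. Without Control-AI 2 it was -0.25. OGN differed by -0.38 (SE 0.19, 95% interval -0.81 to 0.04), FMOD by -0.20 (SE 0.21), BGN by -0.15 (SE 0.20) and KERA by 0.06 (SE 0.16).

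**Figure D4:**
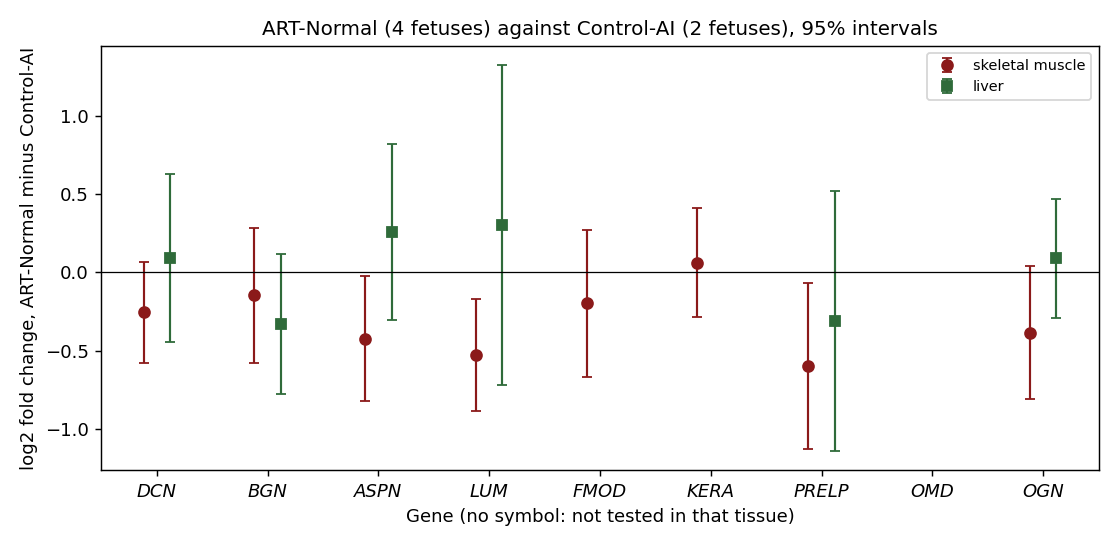
Log2 fold change, ART-Normal (4 fetuses) minus Control-AI (2 fetuses), of each member in skeletal muscle (circles) and liver (squares), with 95% intervals from the edgeR fit. None passed the adjusted threshold; in muscle 7 of 8 estimates lie below 0, from -0.60 for PRELP to 0.06 for KERA, and in liver they lie on both sides.

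Fibroblast markers lay lower with the members in ART-Normal muscle. All 12 had a log2 fold change below 0, from -0.01 for PDGFRB to -0.52 for POSTN, with a median of -0.17. For 3 of them every ART-Normal library lay below both controls, although none was called and 2 had an unadjusted p under 0.05. The summed level was 7162, 8020, 8058 and 7071 CPM in ART-Normal 1 to 4, against 9580 CPM in Control-AI 2 and 9471 in Control-AI 4. The summed level of the 9 members was 2936, 2819, 2552 and 2360 CPM in ART-Normal 1 to 4, against 3355 CPM in Control-AI 2 and 3505 in Control-AI 4. The tendon list, at 227 to 340.8 CPM in ART-Normal, against 266.9 CPM in Control-AI 2 and 288.3 in Control-AI 4, overlapped. The part of these cells in the muscle values was not tested.

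The pathway lists held no gene called between ART-Normal and Control-AI in either tissue, and their largest values are given for their size only. In muscle, ERBB4, a receptor that decorin can down-regulate, was at 161.5 to 236.3 CPM in ART-Normal, against 64.4 CPM in Control-AI 2 and 105.4 in Control-AI 4 (log2 fold change 1.14, edgeR adjusted p = 0.275). TGFB1 differed by -0.91 (adjusted p = 0.389), CHST11, a chondroitin sulfotransferase, by 0.92 (adjusted p = 0.341), and UST, which sulfates uronic acids of the chains, by 0.72 (adjusted p = 0.338). COL11A2 differed by 1.02 and COL1A1 by -0.36 (adjusted p = 0.488 and 0.569). The lowest CHST11, UST and ERBB4 values were those of Control-AI 2. Of the proteases, ADAMTS4 differed by 0.23 and TLL2 by -0.17, and of the further family genes ECM2 differed by -0.16 and PODN by -0.13.

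In liver 6 members could be tested, since FMOD, OMD and KERA did not reach 5 CPM in all libraries of a group. None was called by edgeR, and neither was any of the 11304 genes tested (0%, with 948 at an unadjusted p under 0.05 and 56 called by DESeq2). None of the 6 had an unadjusted p under 0.05, and DESeq2 called 0 of them. The log2 fold change was 0.30 for LUM (SE 0.46, 95% interval -0.72 to 1.32), 0.26 for ASPN (SE 0.25, -0.30 to 0.82), 0.09 for DCN (SE 0.24, -0.44 to 0.63) and 0.09 for OGN (SE 0.17, -0.29 to 0.47). It was -0.33 for BGN (SE 0.20, -0.78 to 0.12) and -0.31 for PRELP (SE 0.37, -1.14 to 0.52). No member had all ART-Normal livers on one side of both controls, where 9.23% of all genes had them above and 9.16% below.

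The controls lay far apart in liver. Control-AI 4 had the lowest liver value of all 6 fetuses for DCN, LUM, ASPN, FMOD, OGN and PRELP, and Control-AI 2 had the highest for DCN, BGN, FMOD, OMD and PRELP. Without Control-AI 4 the signs of DCN (-0.31), LUM (-0.36), OGN (-0.03) and ASPN (-0.15) turned in liver, and without Control-AI 2 that of PRELP turned (0.62). In the pathway lists, ADAMTS5, an aggrecanase that also cleaves decorin, was at 16 to 18.8 CPM in ART-Normal livers, against 8.71 CPM in Control-AI 2 and 12.3 in Control-AI 4, and was not called (log2 fold change 0.77, edgeR adjusted p = 0.458). CCN2 differed by -0.90 and TGFB1 by -0.65 (adjusted p = 0.546 and 0.55). CHST14, the dermatan 4-O-sulfotransferase, differed by -0.50, CSGALNACT1, which starts chondroitin chains, by -0.41, COL1A2 by 0.37, MMP2 by 0.15, TSKU by 0.13 and COL5A2 by 0.07.

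Whether the difference between ART-Normal and Control-AI itself differed between tissues was tested as an interaction over the 12 libraries. None of the 12923 genes was called by edgeR (0%, with 717 at an unadjusted p under 0.05), and none of the 8 members had an unadjusted p under 0.05. A likelihood ratio test in edgeR called 98 genes and no member. The interaction, liver minus muscle, was 0.85 for LUM (SE 0.53, 95% interval -0.29 to 2.00), 0.70 for ASPN (SE 0.34, -0.04 to 1.43), 0.48 for OGN (SE 0.25, -0.06 to 1.03) and 0.36 for DCN (SE 0.31, -0.31 to 1.03). It was 0.30 for PRELP, -0.10 for FMOD and -0.17 for BGN. The KERA value is not given, since liver had 1 count in all. Of the pathway lists none was called. The largest value by size was that of CHST13 (4.29, edgeR adjusted p = 0.661), whose muscle libraries held 32 counts in Control-AI 2 and 0 to 4 in the others, so that it rests on few counts. The 2 largest by size in each list also held CSGALNACT1 (-0.86) among the chain enzymes, ERBB4 (-1.44) among the growth factors and receptors, COL11A2 (-0.71) and COL5A3 (0.59) among the collagens, TLL2 (1.12) and ADAMTS5 (0.67) among the proteases and ECM2 (0.34) among the further family genes, while MSTN and PODN, the other 2, are not given because their liver counts were near 0.

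Both muscle groups lay above both liver groups for DCN, BGN, ASPN, LUM, FMOD, KERA, PRELP and OGN, and ART-Normal and Control-AI of 1 tissue did not differ beyond their error after adjustment.

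Across fetuses, some members varied together. In muscle, Pearson's r of log2 CPM over the 6 libraries was 0.99 for DCN and LUM, 0.90 for OGN and ASPN, 0.89 for LUM and OGN and 0.84 for DCN and OGN, and it was -0.92 for FMOD and KERA. In liver it was 0.98 for DCN and ASPN, 0.93 for FMOD and PRELP and 0.86 for BGN and FMOD. BGN and DCN, the closest relatives by sequence class, had an r of -0.05 in muscle and 0.19 in liver. These values describe 6 libraries that include both groups and the fetus that stands apart, and the genes share each library's normalization.

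Over all 12 libraries with the tissue means subtracted, and among 12922 other genes, the pattern of ASPN was closest to NUP58 (r = 0.94) and LOX (0.91), the latter a collagen cross-linking enzyme. PRELP was closest to ENTPD1 (0.93), ITPRIPL1 (0.92) and SPARC (0.92), a collagen-binding matrix protein. OGN was closest to TWSG1 (0.94), a modulator of BMP signals, then to MFSD1 (0.93) and ENPP5 (0.92). LUM was closest to HACD3 (0.91), CAMK2N1 (0.91) and OSR1 (0.90), a transcription factor of connective tissue. BGN was closest to PEG3 (0.92), SLC52A2 (0.91) and TMEM175 (0.91), DCN to ND5, CADPS and NUP58 (0.90, 0.90 and 0.89), and FMOD to SPRYD4, ZNF2 and ITGA11 (0.89, 0.89 and 0.85). KERA was closest to DMRT2 (0.99), CBLN4 and TNNT1 (both 0.98), but its liver values were 0 in 5 libraries and 1 count in Control-AI 2, so that single count can carry these r values. The libraries share depth and normalization, and no test was made.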

How the data were processed

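RNA of liver and skeletal muscle was poly(A)-selected and sequenced as strand-specific 150 bp paired-end libraries. The submitters' processing notes name FastQC 0.11.7, HISAT2 2.1.0, Cufflinks, SAMtools, featureCounts and edgeR 3.24.3 and the build ARS-UCD1.2; the strand setting of counting was not given in the sources used here. The authors deposited raw counts per gene, 1 table per tissue, whose length column is the genomic span (end minus start plus 1), so no level per transcript length was computed. The tables hold 14 further count columns that match no sample here and were not used. The authors' own comparison tables, which hold fold changes and p-values, were not used.

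Counts were analysed with edgeR 4.0.16 in R 4.3.3: a filter that kept a gene reaching 5 CPM in every library of any 1 group, TMM factors, the quasi-likelihood test, Benjamini-Hochberg adjustment over all genes tested and a threshold of 0.05. TMM was computed within tissue for ART-Normal against Control-AI and for printed levels, and over 12 libraries for comparisons between tissues. Intervals of 95% use the fit's degrees of freedom. The code was tested on simulated data. Replicates were compared pairwise and none was a repeat of another.

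The members and gene lists were chosen with earlier results of these data known. The text names all 9 members; from each pathway list up to 3 genes with the largest and 3 with the smallest log2 difference among those called, or the 2 largest by size where none was; genes overlapping or adjoining the members; and the 3 genes most like each member by Pearson's r. A few further genes were named after their values were seen. CCN2 is listed as CTGF. Alternatives were other normalizations, filters and tests (among them DESeq2 1.42.0), leaving out each fetus, and blocks. The tissues are paired by fetus, since each fetus gave both; the correlation of a fetus's deviations in liver and muscle over 12923 genes was 0.03 to 0.34. Figures were drawn with matplotlib 3.10.9.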

Additional observations from a re-analysis of the deposited data

Results flagged for a closer look

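Of 18 sets of 4 ART-Normal libraries, 1 for each gene and tissue, KERA in liver was 0 throughout and could not be tested. Among the other sets, 2 had a library far from the rest by Dixon's test at the 95% level, which by chance marks about 1 in 20. OMD in liver was at 0.568 CPM in ART-Normal 1 and between 0.161 and 0.192 CPM in the other 3, a gap of 0.925 of the range, at 13 against 5 to 8 counts. PRELP in muscle was at 25.6 CPM in ART-Normal 4 and between 15.8 and 17.2 CPM in the others, a gap of 0.857 of the range.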

How the results depend on the processing

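The 8 members were called lower in liver under every alternative that was run and kept them in the test, and none of 111 single-gene values turned. Blocking by fetus (a replicate block, since each fetus gave both tissues) left 8 members called between tissues and 0 in the interaction, and raised the count over all genes between tissues from 10343 to 10898; it changed no call of a member, and it moved FMOD from -0.10 to 0.0019 in the interaction. With library size alone the median of all genes was -0.17 between tissues, 0.21 in liver and 0.20 in the interaction, against 0.0085, 0.0075 and -0.00059 with TMM, and it turned BGN (0.078) and FMOD (0.18) there.

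Leaving out 1 fetus at a time gave 0 to 1 members called in muscle, the 1 being PRELP without Control-AI 4 (-0.89 to -0.25), and KERA from -0.033 to 0.14. In liver it gave ranges of -0.31 to 0.66 for DCN, -0.36 to 1.46 for LUM, -0.031 to 0.22 for OGN, -0.15 to 0.81 for ASPN and -0.89 to 0.62 for PRELP, and in the interaction -0.76 to 0.80 for FMOD, -0.30 to 0.025 for BGN and -0.024 to 0.92 for DCN. Without a control the lone one is assumed to vary like the other libraries. The cause was not tested.

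Calls over all genes depended more on the settings. In muscle 1 gene was called, against 120 with a likelihood ratio test, 106 with DESeq2, 0 with ART-Normal 1 to 3 and 0 in one fit of both tissues, and 0 to 1327 on leaving out a fetus. In liver 0 were called, against 8, 89, 56, 2 and 4 with library size alone, the likelihood ratio test, DESeq2, ART-Normal 1 to 3 and one fit, and 0 to 830 on leaving out a fetus. In the interaction 0 were called, against 98 with the likelihood ratio test and 0 to 232. ART-Normal and Control-AI share the numbers 2 and 4, and the labels do not say whether these mark anything in common. With these numbers as a replicate block 93 genes were called in muscle and 6 in liver, and no member. With 2 controls, of which 1 stands apart, no difference of the size seen here between ART-Normal and Control-AI was called for a member.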
